A study of Homo sapiens with 20 samples.

Results

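The large subunit of the cytosolic ribosome holds the RNA catalyst of peptide bond formation and a shell of proteins around it. The genes studied here encode those proteins, from the stalk proteins RPLP0, RPLP1 and RPLP2, which recruit the translation GTPases, to the RPL3 to RPL41 series. They were given by a fixed list of Ensembl gene IDs, defined by gene family and not by a measured value. Earlier results of these data were known when the family was chosen. All 45 of the listed IDs were present among the 19029 IDs of each deposited table. The tables list IDs alone, and the reference table used here gave a symbol for 0 of the 45, so single genes are given by ID and the role of each protein is left out.

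The cells were HEK 293T, a human embryonic kidney line, labelled wild type in every group, and the line was not checked against marker genes because the IDs carry no names. They received DMSO, the solvent, or 5 µM i14G1-12 for 1 h, and the series is titled around inhibition of the pair eIF1 and eIF4G1, which both belong to the machinery of translation initiation. Formaldehyde fixed initiation complexes on mRNA, RNase I trimmed the mRNA outside them, ultracentrifugation isolated the small-subunit complexes, and 4 immunoprecipitations then selected those holding eIF1 or eIF2a (each through an HA tag), eIF3 or eIF4G1. There were 20 libraries in 8 groups: 3 with DMSO and 3 with i14G1-12 for eIF1 and for eIF4G1, and 2 of each for eIF2a and for eIF3. RNA before immunoprecipitation was not analysed here, so each value is a gene's part of the RNA in an immunoprecipitate and does not separate mRNA abundance from the number of complexes per mRNA.

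Messenger RNAs of ribosomal proteins are among the most abundant in growing cells and are translated as a group. Most begin with a C followed by an unbroken stretch of pyrimidines, the terminal oligopyrimidine or TOP motif, through which mTOR signalling and the protein LARP1 control their translation. Initiation on a capped mRNA starts with eIF4F, of which eIF4G1 is the scaffold; eIF3 and the eIF2 complex with its initiator tRNA ride on the small subunit, and eIF1 keeps the scanning subunit from settling on a wrong start codon.

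The TOP motif lies at the first transcribed bases, so these are shown for the genes the list's rule names. The RefSeq promoter table (build GRCh38.p14) held 38 of the 46 such symbols found in the RefSeq gene table, with 50 annotated starts. The symbols were matched by their form and include RPL36A, which lies outside the list of IDs. A TOP-like start was taken as a C at the start base with at least 4 more C or T directly after it, on the transcribed strand only. It was present at 28 of the 50 starts (56.0%), which belonged to 28 of the 38 genes (73.7%), and at 4.07% of all 35116 promoters of the table. The longest run of C or T between 10 bases before and 20 bases after the start had a median of 10 bases over these 50 starts and 4 over the other starts. Starts of 6 genes with the longest runs are printed (RPLP1, whose run equals that of RPL35, is left out) with 10 bases before the start and 19 from it on, the run in capitals, followed by 3 starts that lack the motif.
RPL39: ccgccagcttCCCTCCTCTTCCTTTCTCC
RPL7A: attccctttcCTTTCTCTCTCCTCCCgcc
RPLP2: tcggcgccttCCTTTTCCTCCCTgtcgcc
RPL10: ggaggagcgcCTCTTTCCCTTCggtgtgg
RPL26: gcgtgtagttCTCTTCCCTTTTgcggcca
RPL35: cgcctacttcCTCTTTCCCTCggagcggg
RPL10A: aagacatgctagtctcttttccggttagc
RPL15: tggggcctgctggaggagcttcacgcagt
RPL17: ttccctaagcagcctgaggtgagtgtttc

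The windows lie at chrX:119791612-119791640 (RPL39, minus strand), chr9:133348208-133348236 (RPL7A, plus), chr11:809957-809985 (RPLP2, plus), chrX:154398367-154398395 (RPL10, plus), chr17:8383175-8383203 (RPL26, minus), chr9:124861939-124861967 (RPL35, minus), chr6:35468391-35468419 (RPL10A, plus), chr3:23916535-23916563 (RPL15, plus) and chr18:49492447-49492475 (RPL17, minus). Each spans the end of the promoter and the first bases of the 5′ UTR. The run from the start was 19 bases in RPL39, where it ended with the printed window, 16 in RPL7A, 13 in RPLP2, 12 in RPL10 and RPL26 and 11 in RPL35. A start without the motif says only that these letters are absent at that annotated base, since a start shifted by a few bases would change the result. The starts could not be joined to the counts, because the counts carry IDs and the promoter table symbols.

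Depth limits several libraries. Total counts ran from 10033 (eIF2a DMSO 2) and 59179 (eIF3 DMSO 2) to 1161512. Every 1 of the 45 genes had at least 1 count in every library and passed the filter on low counts in every fit. In eIF2a DMSO 2 their counts ran from 1 to 20 per gene, and 3 counts there correspond to 159 CPM (counts scaled to a common library total), so a single gene's level in that library carries a large counting error. The counts of 1 library also came almost only in steps of 3. In eIF4G1 i14G1-12 3, 12568 of the 12574 non-zero counts were exact multiples of 3, those of all 45 genes among them. No source used here gives the reason. Dividing that library by 3 left the same number of these genes called in every comparison. The treatment of reads matching more than 1 gene is likewise unstated, and ribosomal protein genes have many near-identical processed pseudogenes, so levels of single genes may include lost or shared reads.

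Relative to their length these mRNAs were among the most heavily represented in the initiation complexes. Over the 10 DMSO libraries the 45 genes had a median level of 746 CPM per kb of counted sequence, against 12.7 CPM per kb in the other genes that passed the filter. They made up 19 of the 100 highest and 44 of the 1000 highest levels per kb among 9426 genes. The library total behind CPM was scaled by edgeR's trimmed mean of M-values (TMM). The counted sequences were short, 390 to 7573 nt with a median of 1017 nt, against a median of 3559 nt for the other genes.

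ENSG00000177600 had the highest level per kb, 2822 ± 1851 CPM per kb (SD, n = 10 DMSO libraries), and ENSG00000198918, the shortest at 390 nt, the next at 2178 ± 927 CPM per kb. ENSG00000114391 stood at 1942 ± 1006, ENSG00000137818 at 1528 ± 560 and ENSG00000229117 at 1462 ± 481 CPM per kb. Neighbours in this order differed by less than the SD of the higher one, which includes the differences between immunoprecipitations. At the other end stood ENSG00000145592 at 71.8 ± 24.8, ENSG00000108107 at 80.6 ± 40.4 and ENSG00000188846 at 87.5 ± 32.0 CPM per kb, with counted sequences of 7573, 4209 and 7136 nt. They too differed from each other by less than their SDs. Division by the counted length shapes this order, and in plain CPM the gap was far smaller. In eIF1 DMSO, ENSG00000177600 and ENSG00000198918 had means of 2430 and 1294 CPM. ENSG00000145592, ENSG00000108107 and ENSG00000188846 had 759, 503 and 763 CPM there. Whether the number of complexes on an mRNA goes with its length was not tested.

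Without the compound, the share of all counts that fell in the 45 genes differed between immunoprecipitations. In the DMSO libraries it was 4.68%, 4.06% and 4.60% for eIF1 (mean 4.45% ± 0.34, SD, n = 3), and 3.26%, 2.95% and 2.57% for eIF4G1 (2.93% ± 0.34, n = 3). It was 4.62% and 3.95% for eIF2a (4.29% ± 0.48, n = 2) and 2.66% and 2.01% for eIF3 (2.33% ± 0.46, n = 2). Every eIF1 and eIF2a library with DMSO lay above every eIF4G1 and eIF3 library with DMSO. The higher shares were those of the immunoprecipitations through an HA tag, and each immunoprecipitation has its own set of libraries. Factor, way of selection and set of libraries therefore cannot be told apart, here or in the DMSO contrasts below. A share over chosen genes was not tested.

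With i14G1-12 the share lay above the DMSO range in every library of the eIF4G1 complexes and of no other immunoprecipitation. The eIF4G1 libraries with i14G1-12 held 3.86%, 4.44% and 4.10% (4.13% ± 0.29, n = 3), all above the highest DMSO library at 3.26%. The eIF1 libraries with i14G1-12 held 4.31%, 3.96% and 4.13% (4.13% ± 0.18, n = 3), inside the DMSO range for 2 libraries and below it for 1. The eIF2a libraries held 4.10% and 4.69% (4.39% ± 0.42, n = 2), and the eIF3 libraries 3.75% and 2.26% (3.00% ± 1.05, n = 2), 1 above and 1 between the DMSO values. The mean shares of eIF1, eIF4G1 and eIF2a with the compound thus lay between 4.13% and 4.39%. In eIF1 complexes 10 other genes took 11.2% to 25.2% of all counts, against 4.08% to 7.01% in the other immunoprecipitations, and with those genes removed from the total the eIF1 shares were 5.23% with DMSO and 5.07% with i14G1-12.

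**Figure D1:**
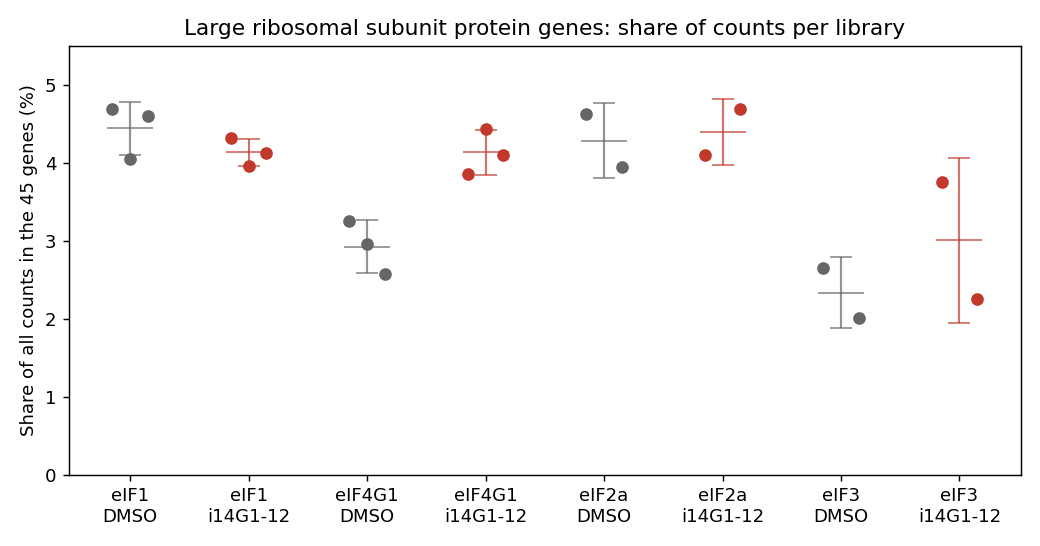
Share of all counts in the 45 large-subunit protein genes (%, vertical axis from 0) in each of the 20 libraries, by immunoprecipitation and treatment; points are libraries, the bar is the mean and the whiskers its SD. The 3 eIF4G1 libraries with i14G1-12 (3.86% to 4.44%) lie above the 3 with DMSO (2.57% to 3.26%); in the other immunoprecipitations the treatments overlap.

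The first comparison asks which of these mRNAs differ between the complexes when no compound is present. Relative to the mean of the other DMSO groups, 19 of the 45 genes were higher in eIF1 complexes and 0 lower at an adjusted p at or under 0.05 (edgeR quasi-likelihood test over 9426 genes, Benjamini-Hochberg adjustment); of all genes tested, 3.76% were higher and 0.329% lower. All 45 had a log2 difference above 0, against 53.4% of all genes, with a median of 0.85 against 0.04 over all genes. On total counts both medians move down together, to 0.40 for the 45 and -0.33 for all genes, with 34 of the 45 above 0 and 9 called (2.19% of all genes). One library also weighs heavily, since 5 genes are called without eIF1 DMSO a, and that library was the highest of the 3 for both genes described next.

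ENSG00000100316 showed the largest difference. It stood at 5212, 2363 and 3556 CPM in the eIF1 DMSO libraries, at 864, 1114 and 713 in eIF4G1, at 1327 and 741 in eIF2a and at 730 and 473 in eIF3. Every eIF1 library lay above every other DMSO library, and the log2 difference was 2.13 (SE 0.29, edgeR adjusted p = 8.73e-07). ENSG00000147403 behaved alike, with 3019, 1577 and 2035 CPM in eIF1 and 195 to 971 CPM in the other DMSO libraries, a log2 difference of 2.01 (SE 0.29, edgeR adjusted p = 2.34e-06).

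The other 17 called genes had log2 differences between 0.91 and 1.59. The larger ones were ENSG00000089157 (1.59), ENSG00000177600 (1.55), ENSG00000063177 (1.50), ENSG00000122026 (1.49), ENSG00000148303 (1.47) and ENSG00000198755 (1.42). Then came ENSG00000125691 (1.32), ENSG00000265681 (1.29), ENSG00000147604 (1.23), ENSG00000163682 (1.22), ENSG00000114391 (1.17) and ENSG00000172809 (1.16). The rest were ENSG00000162244 (1.09), ENSG00000198918 (1.01), ENSG00000142676 (0.94), ENSG00000109475 (0.93) and ENSG00000089009 (0.91). Within the group the differences spanned 2 log2 units, down to ENSG00000108298 at 0.02, with 363 ± 59.3 CPM in eIF1 and 340 ± 132 CPM in the other DMSO libraries. In 15 of the 45, all eIF1 DMSO libraries lay above all 7 other DMSO libraries, against 6.08% of all genes tested.

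No gene of the 45 was called in the matching contrasts of the other immunoprecipitations. In eIF4G1, with 0.0212% of all genes called higher and 0.0955% lower, the median log2 difference was -0.33 and 2 of 45 were above 0, against 56.2% of all genes. An unadjusted p under 0.05 was found for 4, against 5.18% of all genes, and DESeq2 called 0. In eIF3, with 0.0849% of all genes called higher and 0.0106% lower, the median was -0.87 and 0 of 45 were above 0, against 52.8% of all genes; 28 had an unadjusted p under 0.05, against 5.79% of all genes, and DESeq2 called 2. In eIF2a, with 0.0424% called higher and 0.0106% lower, the median was 0.28 and 40 of 45 were above 0, against 41.0% of all genes. An unadjusted p under 0.05 was found for 3, against 3.70% of all genes, and DESeq2 called 0. The eIF2a direction rests on 1 library: without eIF2a DMSO 1, which leaves the library of 10033 counts alone in its group, the median was -0.70. These contrasts share their DMSO libraries, so a high eIF1 group lowers the difference of every other group.

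With i14G1-12, most of these mRNAs had a higher value in eIF4G1 complexes than with DMSO. Of the 45 genes 3 were higher and 0 lower (edgeR, 7203 genes tested), against 0.347% of all genes higher and 0% lower. The median log2 fold change of i14G1-12 over DMSO was 0.49, against -0.01 over all genes, and 39 of the 45 were above 0, against 49.6% of all genes. In 22 of the 45, every i14G1-12 library lay above every DMSO library, against 7.22% of all genes tested, and the reverse held in 0 of the 45, against 6.97%. At an unadjusted p under 0.05, 20 of the 45 were higher and 0 lower, against 5.86% and 2.79% of all genes (8.65% in either direction). DESeq2 called 15, all higher, against 8.54% of the 948 genes for which it gave an adjusted p. The 10 most abundant other genes took 4.36% to 5.23% of the counts in the eIF4G1 DMSO libraries and 6.85% to 7.01% in those with i14G1-12, and their part in the result was not tested.

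The 3 called genes rose about as much as each other. ENSG00000148303 stood at 991, 779 and 741 CPM with DMSO and at 3581, 2234 and 1864 CPM with i14G1-12, which gave 1.61 on the log2 scale (SE 0.29, edgeR adjusted p = 0.00671). ENSG00000100316 stood at 864, 1114 and 713 CPM and then at 3460, 2540 and 2110 CPM (1.59, SE 0.28, edgeR adjusted p = 0.00671). ENSG00000089157 stood at 525, 449 and 502 CPM and then at 1817, 1290 and 1281 CPM (1.57, SE 0.28, edgeR adjusted p = 0.00601). In each of them all treated libraries were above all DMSO libraries, and the library i14G1-12 1 was the highest. The calls depended on single DMSO libraries. Without eIF4G1 DMSO 1 or without DMSO 3, 0 of the 45 were called. Without DMSO 2, 1 was called, ENSG00000100316 (edgeR adjusted p = 0.0318). The number called did not fall without i14G1-12 1 or without i14G1-12 3, and the number without i14G1-12 2 is not given here. Over all left-out libraries the log2 fold changes of the 3 genes stayed at or above 1.29.

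The genes next in order missed the threshold. ENSG00000122026 went from 198, 122 and 112 CPM to 380, 380 and 348 CPM (log2 fold change 1.33, edgeR adjusted p = 0.0594). ENSG00000125691 had 1.29 (edgeR adjusted p = 0.0573), ENSG00000114391 1.24 (0.0594), ENSG00000147403 1.13 (0.0904) and ENSG00000177600 1.09 (0.0904), and in each of these 5 the groups did not overlap. Of the 6 genes with values below 0, the 3 lowest had overlapping groups. ENSG00000156482 stood at 480, 281 and 355 CPM with DMSO and at 227, 356 and 284 CPM with i14G1-12 (-0.36, edgeR adjusted p = 0.817), ENSG00000122406 had -0.27 and ENSG00000144713 -0.14. Leaving out single libraries turned the sign of the last 2.

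**Figure D2:**
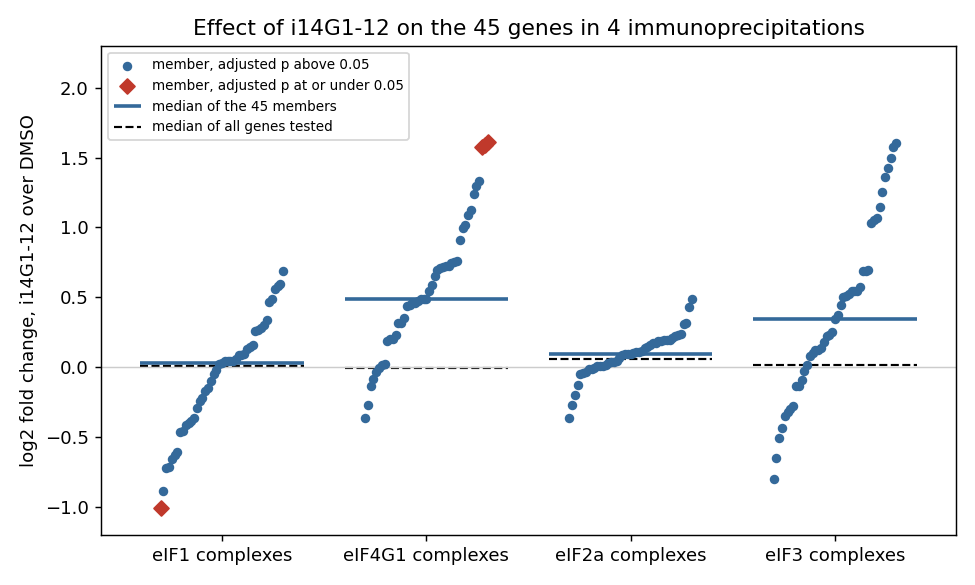
Log2 fold change of i14G1-12 over DMSO (vertical axis) for each of the 45 genes, sorted within each of the 4 immunoprecipitations; red diamonds are genes with an adjusted p at or under 0.05, solid lines the median of the 45 and dashed lines the median of all genes tested. The 45 genes spread around 0 in eIF1 and lie mostly above it in eIF4G1 (median 0.49) and eIF3 (0.34), while those of eIF2a stay between -0.37 and 0.49.

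In eIF1 complexes the compound left the median of the 45 at 0.03 (all genes 0.00), with 24 above 0 (50.6% of all genes) and 21 below. The genes did not move as a block: their log2 fold changes had an SD of 0.41 and ran from -1.01 to 0.69. One gene was lower and 0 higher (edgeR, 8338 genes tested), against 0.132% of all genes lower and 0.324% higher, while DESeq2 called 7 lower and 1 higher, against 2.28% and 4.23% of the 2670 genes for which it gave an adjusted p. At an unadjusted p under 0.05, 9 were lower and 4 higher, against 5.86% and 6.52%. In 15 of the 45, every i14G1-12 library lay below every DMSO library, against 9.15% of all genes, and in 0 of the 45 the reverse held, against 8.86%. Without i14G1-12 a, the library in which 10 other genes took 25.2% of the counts, the median was -0.16 and 8 of 45 were above 0; on total counts 11 were above 0 and the median of all genes was -0.13.

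The gene called lower, ENSG00000156482, stood at 464, 465 and 464 CPM in the eIF1 libraries with DMSO and at 201, 257 and 240 CPM in those with i14G1-12. The groups did not overlap, and i14G1-12 over DMSO gave -1.01 in log2 (SE 0.22, edgeR adjusted p = 0.0317). The call was lost with all 20 libraries in 1 fit, where the adjusted p was 0.555, and without either of 2 of the 3 libraries of each group, while the fold change stayed between -1.14 and -0.90 in all fits. ENSG00000197958 came next, from 602, 730 and 635 to 282, 410 and 383 CPM (-0.89, edgeR adjusted p = 0.0618), and then ENSG00000144713 (-0.72, edgeR adjusted p = 0.166).

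The highest values in eIF1 belonged to ENSG00000114391, from 2241, 1338 and 1764 to 4224, 2164 and 2400 CPM (0.69, edgeR adjusted p = 0.220). ENSG00000122026 followed at 0.60 (0.315) and ENSG00000148303 at 0.58 (0.325). In these 3 the groups overlapped, and the i14G1-12 library a was the highest of all 6 libraries.

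**Figure D3:**
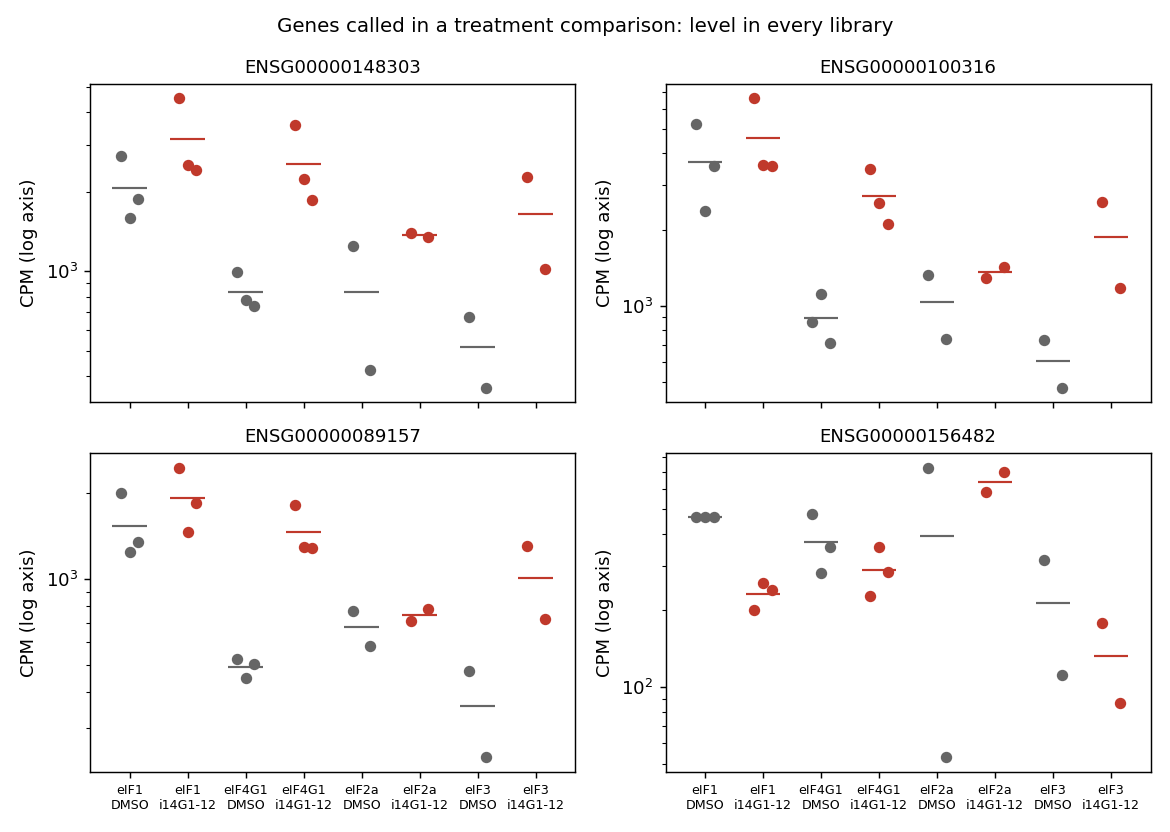
Level (CPM, log axis) of the 4 genes called in a treatment comparison, in each of the 20 libraries; points are libraries and lines are group means. ENSG00000148303, ENSG00000100316 and ENSG00000089157 are high in eIF1 complexes with either treatment and in eIF4G1 complexes only with i14G1-12. In eIF3 complexes they are also higher with i14G1-12 than with DMSO, without a call. ENSG00000156482 is lower with i14G1-12 in eIF1 complexes, and its groups overlap in eIF4G1 and eIF3.

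In eIF3 complexes 0 of the 45 were called (edgeR, 6300 genes tested, 0.0159% of all genes higher and 0% lower; DESeq2 called 0 of the 45 and 0.0203% of its genes higher), and 5 had an unadjusted p under 0.05, all higher, against 1.24% of all genes higher and 0.508% lower (1.75% in either direction). The median was 0.34 (all genes 0.02) and 33 of 45 were above 0, against 51.5% of all genes. In 15 of the 45 both i14G1-12 libraries lay above both DMSO libraries, against 13.8% of all genes, and in 0 below, against 11.9%. The median SE of a gene was 0.64, compared with 0.29 in eIF4G1. These fits did not pair the libraries by replicate number. With that number as a block some of the 45 were called in eIF3, as given below under the dependence on processing. Deviations of same-numbered eIF3 libraries correlated at 0.41, and no label ties the numbers to a shared batch. The value rests on the library i14G1-12 1: without it the median was -0.06 with 21 of 45 above 0, and without i14G1-12 2 it was 0.61 with 40 above 0.

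The genes at the top in eIF3 were in part those at the top in eIF4G1. ENSG00000148303 stood at 671 and 362 CPM with DMSO and at 2266 and 1018 CPM with i14G1-12 (1.61, SE 0.69), ENSG00000100316 at 730 and 473 and then at 2567 and 1172 CPM (1.58, SE 0.69), and ENSG00000122026 at 129 and 97.4 and then at 337 and 343 CPM (1.50, SE 0.61). Both treated libraries were above both DMSO libraries in each of these, and none passed the test (edgeR adjusted p = 1.00). At the bottom were ENSG00000156482 (-0.80, SE 0.66), ENSG00000137818 (-0.65, SE 0.66) and ENSG00000182899 (-0.51, SE 0.63), with overlapping groups.

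In eIF2a complexes 0 of the 45 were called (edgeR, 4719 genes tested, 0% of all genes higher and 0% lower; DESeq2 called 0), and 0 had an unadjusted p under 0.05, against 1.84% of all genes (1.25% higher). The log2 fold changes had an SD of 0.16, the smallest of the 4, around a median of 0.09 (all genes 0.06), with a median SE of 0.39. The highest were ENSG00000167526 (0.49), ENSG00000148303 (0.43) and ENSG00000122406 (0.32), and the lowest ENSG00000122026 (-0.37), ENSG00000109475 (-0.27) and ENSG00000188846 (-0.20). DMSO 2 held 10033 counts, and without DMSO 1, which leaves DMSO 2 alone in its group, the median was 0.87. In 4 of the 45 both i14G1-12 libraries lay above both DMSO libraries and in 0 below, against 21.8% and 7.46% of all genes. In the fit 35 of the 45 were above 0, against 56.6% of all genes, and on total counts 17 were, so no direction is given for this immunoprecipitation.

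The test of the difference between immunoprecipitations called none of the 45. For the effect in eIF1 minus the effect in eIF4G1, 0 were called (edgeR, all 20 libraries in 1 fit; 0.0318% of 9426 genes were lower and 0% higher), 7 had an unadjusted p under 0.05, against 3.13% of all genes, and DESeq2 called 0 of the 45 and 0.012% of its genes. All 45 differences were below 0, with a median of -0.62 against -0.02 over all genes, and 48.3% of all genes were above 0. For ENSG00000089157 the difference was -1.24 (SE 0.47, edgeR adjusted p = 1.00). For a difference between any of the 4 immunoprecipitations, 0 were called (0.0212% of all genes), 3 had an unadjusted p under 0.05, against 1.80% of all genes, and DESeq2 again called 0 of the 45 and 0.012% of its genes. A rise of single genes in eIF4G1 complexes beyond that in the others is therefore not shown by these tests, with the SEs given.

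The order of the 45 genes was alike in eIF1, eIF4G1 and eIF3. No library is shared between these comparisons, and the following correlations run over genes, which do not count as replicates, within libraries that each carry their own depth and scaling. Between eIF4G1 and eIF3 the log2 fold changes of the 45 had a Pearson r of 0.89 and a Spearman rho of 0.86, against a Pearson r of 0.36 over the 4369 other genes tested in all 4. Leaving out single libraries moved it between 0.74 and 0.90. Between eIF1 and eIF4G1 r was 0.79 (rho 0.80, 0.72 to 0.83 on leaving out libraries, other genes 0.45), and between eIF1 and eIF3 it was 0.79 (rho 0.78, 0.54 to 0.81, other genes 0.38). The other genes were not matched for level. Those that passed the filter had a median of 12.7 CPM per kb with DMSO, against 746 in the 45. More counting error can thus enter their values, here and wherever the 45 are set beside all genes. Its part in these differences was not tested.

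The effects in eIF2a had an r of -0.13 against eIF1 (-0.33 to 0.07 on leaving out libraries), -0.07 against eIF4G1 (-0.27 to 0.11) and -0.09 against eIF3 (-0.24 to 0.05). Over the other genes r was 0.08 to 0.09. The SD of the eIF2a effects was 0.16 and their median SE 0.39, while in eIF3 these were 0.62 and 0.64. The eIF2a effects thus spread little beside their SE, so an r near 0 does not decide whether eIF2a follows this order. Genes above 0 in both eIF4G1 and eIF3 numbered 31 of 45, against 27.0% of the other genes, and 24 of 45 were above 0 in eIF1, eIF4G1 and eIF3, against 19.1%. The counted length did not go with the order: r of log2 length with the effects ran from -0.16 (eIF1) to 0.17 (eIF2a).

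**Figure D4:**
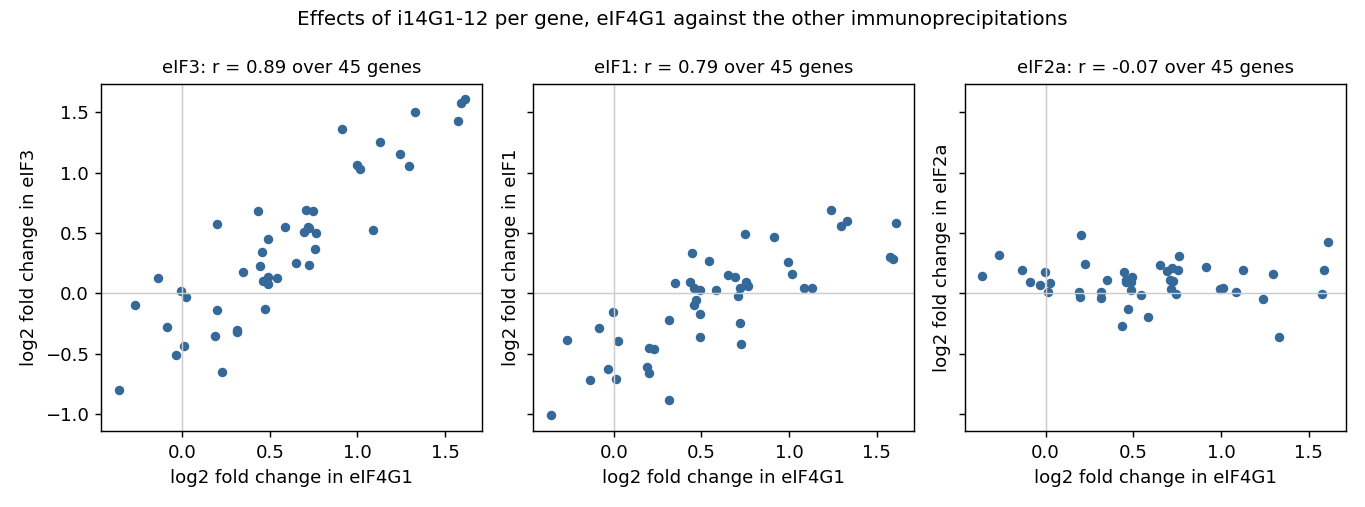
Log2 fold change of i14G1-12 over DMSO of each of the 45 genes in eIF4G1 (horizontal axis) against that in eIF3, eIF1 and eIF2a (vertical axes, 1 panel each, same scale); a point is a gene. The points rise together for eIF3 (r = 0.89) and eIF1 (r = 0.79) and form a flat band for eIF2a (r = -0.07).

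The effects were also set against a difference among the DMSO libraries. The log2 difference between eIF1 and eIF2a complexes with DMSO, which uses none of the eIF4G1 or eIF3 libraries, had an r of 0.72 (rho 0.74) with the eIF4G1 effect and 0.60 (rho 0.59) with the eIF3 effect over the 45, against 0.31 and 0.18 over the other genes. These correlations rest on the library eIF2a DMSO 1: without it, which leaves the library of 10033 counts alone in its group, they were 0.25 and 0.21. Without any other single library they ran from 0.64 to 0.77 for eIF4G1 and from 0.42 to 0.68 for eIF3. Most of the fold changes entering them did not pass the test, 3 of the 45 in eIF4G1 and 0 in eIF3 having been called. ENSG00000100316 and ENSG00000148303 lay at the upper end of both effects, with eIF1 DMSO means of 3710 and 2072 CPM and eIF2a DMSO means of 1034 and 837 CPM.

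Whole profiles were compared by library. Over the log2 CPM of the 45 genes, eIF4G1 libraries with i14G1-12 had a mean r of 0.88 (0.83 to 0.93 over 9 pairs) with the eIF1 DMSO libraries and 0.73 (0.59 to 0.80 over 9 pairs) with the eIF4G1 DMSO libraries. Over the other genes the corresponding means were 0.83 and 0.80. With the i14G1-12 libraries of eIF1 and eIF3 the treated eIF4G1 libraries had mean r values of 0.87 and 0.83, against 0.80 and 0.72 over the other genes. Among themselves, the eIF4G1 DMSO libraries had a mean r of 0.84 and the eIF1 DMSO libraries one of 0.95. The part of this lower likeness among eIF4G1 DMSO libraries in the value of 0.73 was not tested. The eIF3 libraries with i14G1-12 had a mean r of 0.86 (0.78 to 0.94 over 6 pairs) with the eIF1 libraries with i14G1-12 and 0.58 (0.44 to 0.67 over 4 pairs) with the eIF3 DMSO libraries, against 0.74 and 0.73 over the other genes. With the eIF1 DMSO libraries their mean r was 0.80, against 0.76 over the other genes. The eIF3 DMSO libraries had an r of only 0.66 with each other, and DMSO 2 held 59179 counts. The value of 0.58 therefore does not show a move away from the DMSO profile.

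The DMSO libraries of eIF4G1 had mean r values of 0.84 with the eIF2a libraries with i14G1-12, 0.77 with the eIF3 DMSO libraries, 0.74 with the eIF1 DMSO libraries, 0.72 with the eIF2a DMSO libraries and 0.58 with the eIF1 libraries with i14G1-12. Over the other genes the same means were 0.82, 0.74, 0.84, 0.67 and 0.77. The library eIF2a DMSO 2 stood apart, with an r of 0.54 to the other eIF2a DMSO library, and counting error at its depth enters every one of its values.

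**Figure D5:**
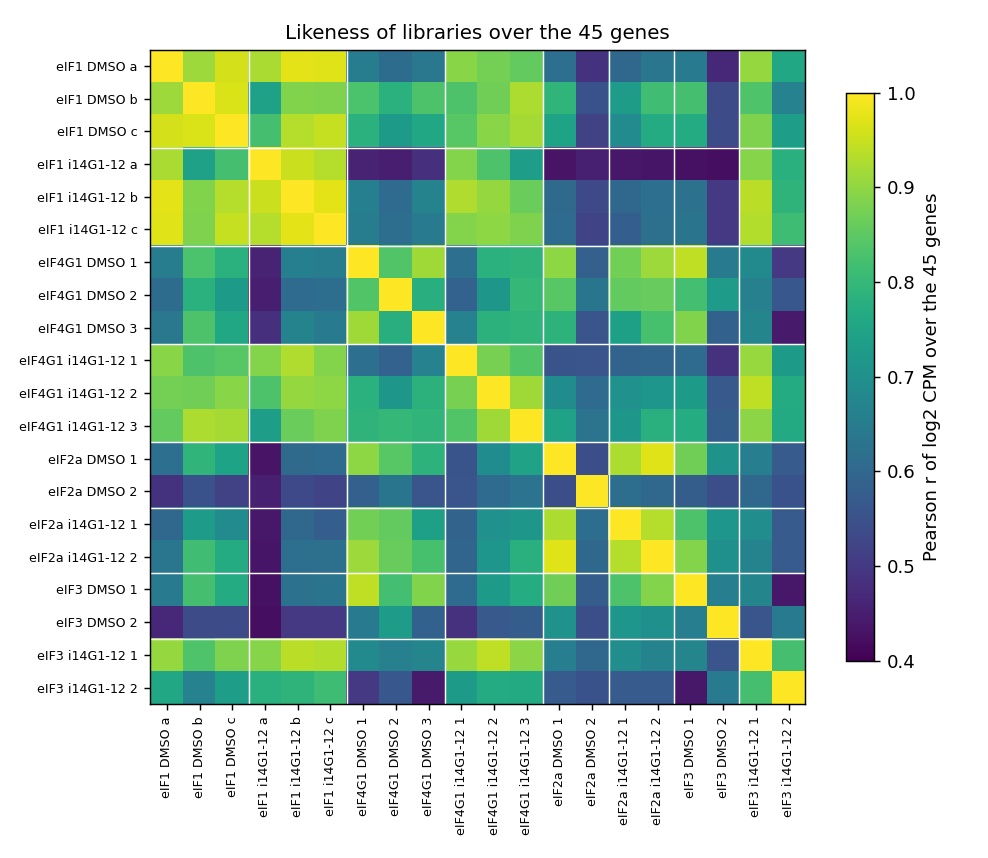
Pearson r of log2 CPM over the 45 genes between every pair of the 20 libraries (colour scale from 0.4 to 1); white lines divide the 8 groups. The eIF4G1 libraries with i14G1-12 are closer to the eIF1 DMSO libraries (mean 0.88) than to their own DMSO libraries (mean 0.73). Their mean with the eIF1 libraries with i14G1-12 is 0.87. The eIF4G1 DMSO libraries have a mean of 0.84 with each other.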

How the data were processed

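The authors deposited 4 tables of raw counts, 1 table for each immunoprecipitation, with a counted Length in nt. Per the submitters' processing notes the authors used cutadapt, Trimmomatic, Bowtie, HISAT2 and featureCounts with hg38; versions are not given in the sources used here. The eIF1 columns name a treatment but not a replicate, so those libraries are called a, b and c. Whether replicates came from separate cultures is not labelled, and the p-values then reflect only how far these libraries differ, possibly for technical reasons.

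Counts were fitted in R 4.3.3 with edgeR 4.0.16 (filterByExpr with a minimum count of 10, TMM, glmQLFit, glmQLFTest; limma 3.58.1 underneath) over all genes, with Benjamini-Hochberg adjustment at 0.05. Treatment was tested within each immunoprecipitation; differences of effects and DMSO contrasts came from 1 fit of all 20 libraries. The scripts were tested on simulated counts. DESeq2 1.42.0, other scalings and filters and left-out libraries were the alternatives. Named genes are all called members, the 3 lowest and 3 highest effects per immunoprecipitation, and the 5 highest and 3 lowest levels per kb; a few others, named as next in order or as the smallest difference, were chosen after their values were seen. The members and lists were chosen with earlier results of these data known. Lists of small-subunit proteins, other TOP mRNAs, assembly factors, mitochondrial ribosomal proteins and cell line markers were not analysed here, because no ID could be named. Same-numbered libraries were not treated as pairs.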

Additional observations from a re-analysis of the deposited data

How the results depend on the processing

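Depth limits eIF2a and eIF3 most, and no alternative called any of the 45 genes for a difference of effects. The number called for i14G1-12 in eIF1 was 2 without a filter on low counts (0.861% of all genes called), 2 at a minimum count of 30 (1.60%), 8 with DESeq2 (6.52%), 0 with all 20 libraries in 1 fit (0.0424%) and 0 to 1 when 1 library was left out. In eIF4G1 it was 6 without the filter (0.468%), 8 at a minimum count of 30 (1.39%), 15 with DESeq2 (9.60%), and 0 to 6 when 1 library was left out. Shares of all genes called are not given for fits with libraries left out. Their numbers show only how the calls depend on those libraries. With the replicate number as a block (replicate block), 4 were called in eIF4G1 (0.298%), 0 in eIF2a (0%) and 6 in eIF3 (0.603%). The deviations of same-numbered eIF4G1 libraries correlated at 0.01, -0.09 and -0.14, which shows no pairing by number. Those of eIF2a correlated at -0.00 and those of eIF3 at 0.41. With only 2 numbers in each of eIF2a and eIF3, a pairing there is neither shown nor excluded. Leaving out 1 library, which leaves 1 in its group, gave a median of -0.10 to 0.87 in eIF2a and of -0.06 to 0.61 in eIF3. For eIF1 DMSO against the other DMSO groups the number was 9 on total counts (2.19%) and 5 to 25 on leaving out 1 library, and DESeq2 called 2 in the eIF3 contrast (0.443%). The median of the eIF2a DMSO contrast ran from -0.70 to 0.64 over all alternatives. Without the 10 most abundant other genes in the total, the share was 5.23% (eIF1 DMSO), 5.07% (eIF1 i14G1-12) and 4.44% (eIF4G1 i14G1-12). Without the 3 most abundant members it was 3.75% and 3.43% in eIF1, 2.57% and 3.46% in eIF4G1 and 3.94% in eIF2a with i14G1-12. Leaving out 1 library turned the sign of some log2 fold changes, which ran from -0.35 to 0.12 (ENSG00000144713) and -0.48 to 0.046 (ENSG00000122406) in eIF4G1, from -0.60 to 1.08 (ENSG00000122026), -0.50 to 0.87 (ENSG00000109475) and -0.078 to 2.05 (ENSG00000122406) in eIF2a, and from -1.41 to 0.17 (ENSG00000156482) and -1.29 to 0.015 (ENSG00000182899) in eIF3. The cause of these changes was not tested. Dividing 1 library by 3 and leaving out eIF2a DMSO 2, eIF3 DMSO 2 and eIF3 i14G1-12 2 together were chosen after seeing the data; the latter gave 16 calls in the eIF1 DMSO contrast.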

Other observations

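The smallest counts differed in kind between the tables. In 12 of 12 libraries of eIF1 and eIF4G1 the commonest non-zero count of a gene was 2 or 3, and in 0 of 8 libraries of eIF2a and eIF3 was it above 1. In eIF1 DMSO b, 0 genes had a count of 1, while 692 had 2 and 697 had 3. In eIF4G1 i14G1-12 3, 1251 genes had a count of 3 and 6 of 12574 counts were not multiples of 3.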
